A study of Mus musculus with 2 samples.

Results

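The Notch genes followed here are 10 mouse genes, namely the receptors *Notch1*, *Notch2*, *Notch3* and *Notch4*, the nuclear effectors *Rbpj* and *Maml1*, the targets *Hes1*, *Dtx1* and *Nrarp*, and *Lfng*, which encodes an enzyme that modifies the receptors. They were taken by name. Each symbol was matched to its protein-coding RefSeq entries (accessions that begin with NM_), which gave 12 of the 26968 NM_ transcripts and 10 of the 20246 genes in the data. *Rbpj* has 3 of the transcripts and each other gene has 1. All 12 were quantified with the status OK in both libraries.

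The data are total RNA-seq of 2 libraries, 1 from *Ebf1* -/- pre-pro-B cells and 1 from *Rag2* -/- pro-B cells, both on a C57BL/6 background and both kept on OP-9 stromal cells, a mouse stromal line. The pre-pro-B cells came from female embryonic liver and received Il-7 (5 ng/mL), Scf (10 ng/mL) and Flt3l (10 ng/mL), while the pro-B cells came from the bone marrow of adult males and received Il-7 (5 ng/mL) alone. Genotype, sex, age, tissue of origin and cytokines therefore cannot be told apart from cell stage, and the number of animals behind each culture is not given in the sources used here. With n = 1 library per cell type there is no test and no p-value, and a level is given as FPKM (fragments per kilobase of transcript, scaled to the library's size) with the 95% confidence interval that Cuffdiff derived for that library alone, given in parentheses as its lower and upper limit.

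Each library was sequenced to about 90000000 single-end reads of 97 bp, as stated by the submitters, and 1 FPKM was reached by 10029 genes in the pre-pro-B and 9346 in the pro-B library. The transcript of *Ebf1* was 4.26-fold lower in the library from *Ebf1* -/- cells (FPKM 64.0 against 273), that of *Rag2* was within 2-fold in the library from *Rag2* -/- cells (22.9 against 34.5), both with overlapping intervals, and neither was at 0. Whether the reads lie outside the deleted parts was not tested. The B lineage markers *Pax5* (1.13 and 239), *Cd79a* (0.200 and 135) and *Vpreb1* (0.359 and 335) were higher in pro-B cells by 2-fold or more. Of 5 multipotent progenitor markers, 4 were lower in pro-B cells by 2-fold or more and *Gata2* was listed at 0 in both libraries. Of the 10525 genes that reached 1 FPKM in at least 1 library, 19.1% were lower in this way. Of the 4 markers, *Cd34* alone reached 1 FPKM in both libraries, and *Kit*, *Flt3* and *Ly6a* did so in the pre-pro-B library only. For a gene counted through 1 library alone, such a call is partly fixed by the limit of 1 FPKM.

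Notch receptors are single-pass membrane proteins that bind Delta and Jagged ligands on a neighboring cell. Ligand binding leads to cleavage by an Adam protease and by gamma-secretase, and the freed intracellular domain enters the nucleus, where it joins the DNA-binding protein Rbpj and a Mastermind-like coactivator to switch on targets such as *Hes1*, *Dtx1* and *Nrarp*. In lymphoid progenitors the pathway is best known for directing cells to the T lineage at the expense of the B lineage, and Notch2 for its part in marginal zone B cells.

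The promoters of the genes on which the comparison turns are shown first. *Notch1*, *Notch2* and *Rbpj* are shown because their levels differed by 2-fold or more between the libraries, and *Lfng* because its promoter alone held the longer of the Rbpj motifs searched. Each run is 300 bases, from 250 before to 50 after the start of the gene, 5′ to 3′ on the strand of the gene, from RefSeq with coordinates on GRCm38.p6. They lie at chr2:26503773-26504072 on the minus strand for *Notch1*, chr3:98013288-98013587 on the plus strand for *Notch2*, chr5:53590096-53590395 on the plus strand for the first of the starts of *Rbpj* and chr5:140607091-140607390 on the plus strand for *Lfng*. Capitals mark the core Rbpj motif TGGGAA or its reverse complement TTCCCA.
Notch1: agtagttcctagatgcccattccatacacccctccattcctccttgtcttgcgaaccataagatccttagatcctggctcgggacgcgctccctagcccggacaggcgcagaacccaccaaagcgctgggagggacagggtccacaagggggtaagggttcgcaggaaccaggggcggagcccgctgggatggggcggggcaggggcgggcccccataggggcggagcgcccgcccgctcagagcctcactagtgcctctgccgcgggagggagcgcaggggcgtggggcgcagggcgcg
Notch2: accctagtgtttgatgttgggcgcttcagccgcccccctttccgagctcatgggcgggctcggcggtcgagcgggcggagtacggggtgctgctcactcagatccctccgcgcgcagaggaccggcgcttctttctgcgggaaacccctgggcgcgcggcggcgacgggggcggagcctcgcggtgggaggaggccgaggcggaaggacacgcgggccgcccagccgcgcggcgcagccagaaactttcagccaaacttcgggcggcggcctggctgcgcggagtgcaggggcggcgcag
Rbpj: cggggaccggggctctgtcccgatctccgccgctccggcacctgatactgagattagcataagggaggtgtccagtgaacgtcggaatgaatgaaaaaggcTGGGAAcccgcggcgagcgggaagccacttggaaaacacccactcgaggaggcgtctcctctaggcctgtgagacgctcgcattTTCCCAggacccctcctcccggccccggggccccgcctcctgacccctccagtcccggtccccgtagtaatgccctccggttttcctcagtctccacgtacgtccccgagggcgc
Lfng: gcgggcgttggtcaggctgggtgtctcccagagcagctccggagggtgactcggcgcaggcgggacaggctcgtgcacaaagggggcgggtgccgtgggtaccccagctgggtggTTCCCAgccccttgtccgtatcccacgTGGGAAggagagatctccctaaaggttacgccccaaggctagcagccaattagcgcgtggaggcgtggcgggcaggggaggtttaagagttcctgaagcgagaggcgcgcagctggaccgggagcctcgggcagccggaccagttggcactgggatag

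Promoter windows were found for 9 of the 10 genes, *Hes1* being the one without an entry, and *Rbpj* had 2 overlapping windows. The core motif TGGGAA, searched on both strands, was in the windows of *Rbpj* and *Lfng* and in none of the windows of the other 7 genes, against 25.6% of all 32851 windows of this length. The *Rbpj* window above held it 149 and 65 bases before the start, the latter as TTCCCA. The longer form GTGGGAA was in 6.38% of all windows and, among these genes, in that of *Lfng* alone, 109 bases before the start, where it overlaps the core match at 108. The promoters of *Notch1*, *Notch2* and *Nrarp* held neither form. A match is a description of the letters in the window and does not show binding.

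The receptors *Notch1* and *Notch2* were among the genes with much lower RNA in pro-B cells. *Notch1*, the receptor required for T lineage commitment (NM_008714, chromosome 2 of mm9, 26313422 to 26359342), stood at 29.5 FPKM (2.27-70.2) in the pre-pro-B library and at 0.511 FPKM (0-1.68) in the pro-B library. *Notch2* (NM_010928, chromosome 3, 97817461 to 97954290) had 27.5 (2.06-61.4) against 1.81 FPKM (0.0451-4.68). Both receptors were thus abundant in the pre-pro-B library and scarce in the pro-B library, *Notch1* with intervals that did not overlap and *Notch2* with intervals that did. The ratio of the deposited FPKM was 57.7-fold for *Notch1* and 15.2-fold for *Notch2*. On the log2 scale with a pseudocount of 1 added to each FPKM, which understates the change of low values, pro-B over pre-pro-B gave -4.34 and -3.34. In such bulk samples, fewer cells with the transcript and less of it per cell cannot be told apart.

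The remaining receptors were low in both libraries. *Notch3*, a receptor known from developing T cells and from vascular smooth muscle (NM_008716, chromosome 17, 32257838 to 32303797), stood at 0.290 FPKM (0-0.826) in the pre-pro-B library and at 0.0605 FPKM (0-0.189) in the pro-B library. *Notch4*, best known from endothelial cells (NM_010929, chromosome 17, 34701240 to 34725488), had 0.449 (0-1.44) against 0.399 FPKM (0-1.32). The intervals of each overlapped and reached 0. The receptor transcripts are long, from 6604 bases for *Notch4* to 10506 for *Notch2*, so a low FPKM stands for more reads than in a short transcript. At the stated depth this is about 207 and 43.2 reads for *Notch3* and about 437 for *Notch1* in pro-B cells. These figures use all stated reads, mapped or not, and the intervals of these values still reach 0. Of 4 endothelial markers, which bear on *Notch4*, *Cdh5*, *Kdr* and *Tek* were at or near 0 in both libraries (at most 0.0548) and *Pecam1*, which leukocytes also express, was at 80.1 and 45.2.

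Summed over the 4 receptors, the pre-pro-B library held 57.8 FPKM and the pro-B library 2.78, 20.8-fold less. The make-up of this sum differed as well, though in pro-B cells the intervals of *Notch1*, *Notch3* and *Notch4* all reached 0. *Notch1* made up 51.1% of the pre-pro-B sum and 18.4% of the pro-B sum, *Notch2* 47.6% and 65.1%, and *Notch4* 0.778% and 14.4%. *Notch4* itself stood at 0.449 and 0.399 FPKM, so its larger share came with the lower levels of the others. *Notch1* and *Notch2* stood at nearly the same level in pre-pro-B cells (ratio 1.07), whereas in pro-B cells *Notch1* was at 0.283 of *Notch2*. The intervals of the pair overlapped in each library.

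**Figure D1:**
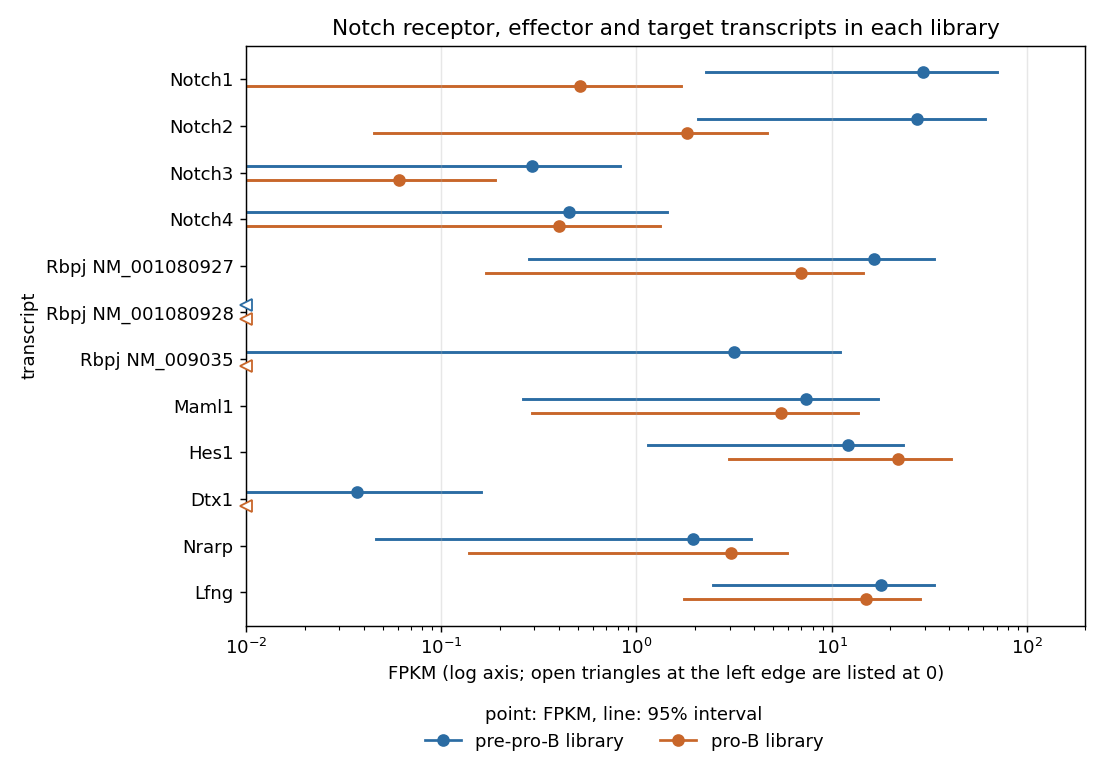
FPKM of the 12 transcripts of the Notch genes on a log axis, with points for the FPKM and lines for Cuffdiff's 95% intervals (1 library per cell type). *Notch1* is the transcript whose intervals stand apart, at 29.5 (pre-pro-B) and 0.511 (pro-B), and lines that reach the left edge go down to 0.01 or lower.

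The nuclear effectors differed less than the main receptors. *Rbpj*, the DNA-binding factor on which all 4 receptors converge (chromosome 5, 53947018 to 54048684), had 19.6 FPKM, summed over transcripts, in the pre-pro-B library and 6.94 in the pro-B library, 2.82-fold lower (log2 -1.37). NM_001080927 made up 83.8% of the pre-pro-B sum and all of the pro-B sum, at 16.4 (0.280-33.5) and 6.94 FPKM (0.170-14.6). NM_009035 added 3.17 in pre-pro-B cells (0-11.0), 16.2% of the gene, and was listed at 0 in pro-B cells, while NM_001080928 was listed at 0 in both. The main transcript alone gave log2 ratio -1.13, so the lower level of *Rbpj* did not rest on the minor one, but the intervals of each transcript overlapped between the libraries. The RefSeq gene table names 3 pseudogenes of *Rbpj*, and the authors' correction for reads that match several places could divide reads among them in a way that was not tested.

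*Maml1*, a Mastermind-like coactivator (NM_175334, chromosome 11, 50069137 to 50105838), stood at 7.36 FPKM (0.263-17.2) in the pre-pro-B library and at 5.52 FPKM (0.292-13.7) in the pro-B library. The ratio was 1.33-fold (log2 -0.36), and the intervals overlapped over most of their range.

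The targets *Hes1* and *Nrarp* were not lower in pro-B cells, unlike the main receptors. *Hes1*, a basic helix-loop-helix repressor and the classic Notch target (NM_008235, chromosome 16, 30065443 to 30067882), stood at 12.2 FPKM (1.14-23.1) in the pre-pro-B library and at 21.8 FPKM (2.97-40.7) in the pro-B library. *Nrarp*, an ankyrin repeat protein that limits Notch signals (NM_025980, chromosome 2, 25036278 to 25038852), had 1.95 (0.0460-3.85) against 3.07 FPKM (0.138-5.92). Both were higher in pro-B cells, by 1.80-fold and 1.57-fold (log2 0.80 and 0.46), within 2-fold and with overlapping intervals. *Dtx1*, a ubiquitin ligase of the Deltex family induced by Notch in lymphocytes (NM_008052, chromosome 5, 121130273 to 121161678), reached 0.0370 FPKM (0-0.160) in the pre-pro-B library, worth about 12.4 reads, and was listed at 0 in pro-B cells. Per unit of summed receptor FPKM, *Hes1* had 0.210 in the pre-pro-B and 7.86 in the pro-B library.

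*Lfng* encodes Lunatic fringe, a glycosyltransferase of the Golgi that adds sugars to the receptors and shifts their response between Delta and Jagged ligands (NM_008494, chromosome 5, 141083295 to 141091499). Pre-pro-B cells had 17.9 FPKM of it (2.47-33.3) and pro-B cells 15.0 (1.75-28.3), which is 1.19-fold apart with nearly coincident intervals. It was the most abundant of the fringe transcripts in both libraries, at 62.6% of the FPKM summed over *Lfng*, *Mfng* and *Rfng* in the pre-pro-B library and 74.3% in the other.

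The order of the Notch genes by FPKM differed between the libraries. In pre-pro-B cells it ran from *Notch1* and *Notch2* through *Rbpj*, *Lfng*, *Hes1*, *Maml1* and *Nrarp* to *Notch4*, *Notch3* and *Dtx1*. In pro-B cells *Hes1* came first, followed by *Lfng*, *Rbpj*, *Maml1*, *Nrarp*, *Notch2*, *Notch1*, *Notch4*, *Notch3* and *Dtx1*. No 2 neighbors in either order had intervals that stood apart, where the limits of its main transcript stood in for *Rbpj*. In the pre-pro-B library *Notch1*, *Notch2* and *Lfng* lay above *Notch3*, *Notch4* and *Dtx1* with separate intervals, and *Hes1* above *Notch3* and *Dtx1*. In pro-B cells *Hes1* and *Lfng* lay above *Notch1*, *Notch3*, *Notch4* and *Dtx1* in the same way. Among all measured genes, *Notch1* stood at percentile 74.5 of FPKM in the pre-pro-B and 8.80 in the pro-B library, *Notch2* at 72.8 and 16.1, and *Hes1* at 48.1 and 67.2.

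Of the 10 Notch genes, 7 reached 1 FPKM in at least 1 library and are counted as measured, *Notch1* through the pre-pro-B library alone. Among these, 3 were lower in pro-B cells by 2-fold or more (*Notch1*, *Notch2* and *Rbpj*), 0 were at least 2-fold higher, and 4 were within 2-fold. The background is 19.1% of the 10525 measured genes at least 2-fold lower and 12.2% at least 2-fold higher, and the median log2 ratio was -0.36 over the 7 genes and -0.14 over all measured genes. With 7 genes these counts describe the genes themselves. Of all measured genes, 133 had a lower log2 ratio than *Notch1*, 313 a lower one than *Notch2* and 1319 a lower one than *Rbpj*. Intervals stood apart for 1 of the 12 transcripts, that of *Notch1*, lower in pro-B cells. This was so for 2.06% of the 18877 NM_ transcripts with an FPKM above 0, and a further 0.959% had separate intervals and were higher in pro-B cells.

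**Figure D2:**
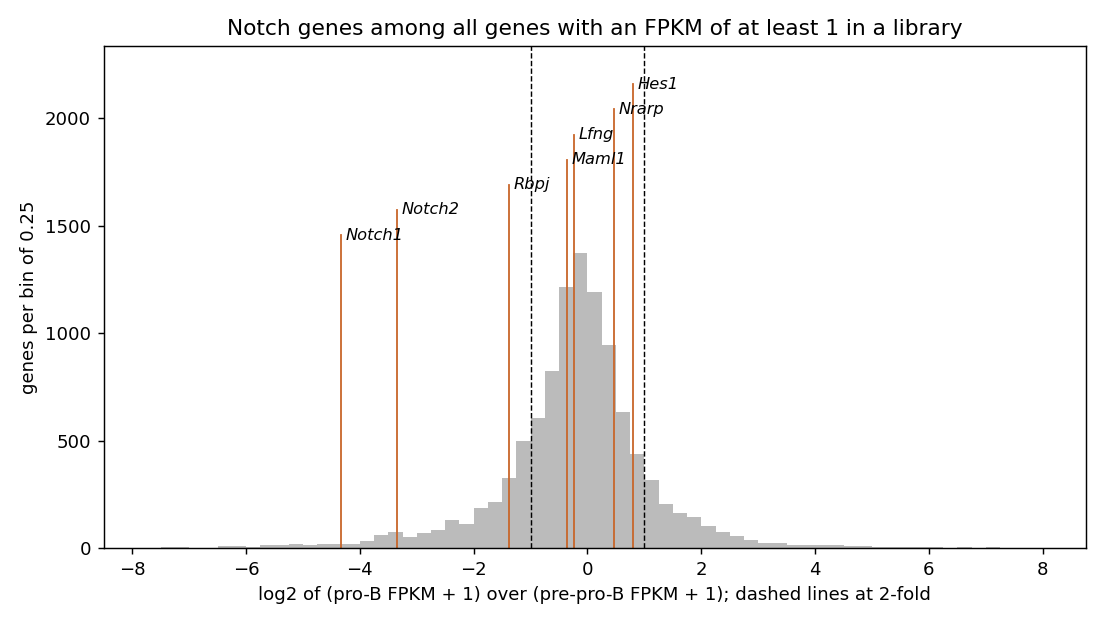
Number of genes per bin of log2 (pro-B over pre-pro-B FPKM, pseudocount of 1) for the 10525 measured genes, with lines at the 7 measured Notch genes, whose heights only separate the names. *Notch1* (-4.34) and *Notch2* (-3.34) lie in the lower tail, and *Hes1* (0.80) and *Nrarp* (0.46) lie right of 0 inside the 2-fold limits.

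The rest of the pathway was examined with 59 further genes listed by role. Of these, 41 were measured, 9 of them lower in pro-B cells by 2-fold or more (22.0%), 1 at least 2-fold higher (2.44%) and 31 within 2-fold. The median log2 ratio was -0.31. At this setting the share of lower genes was thus close to the background of 19.1%, and the share of higher genes was below that of 12.2%. At several other settings, given with the processing, the lower share lay further above its own background. With a pseudocount of 0.1, for example, it was 13 of 41 against 22.1% of all genes.

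Ligands were scarce in both libraries. The highest in pre-pro-B cells was *Dll1*, a Delta ligand, with 1.05 FPKM (0-3.82) in the pre-pro-B library and 0.0386 FPKM (0-0.173) in the pro-B library, log2 ratio -0.98. *Jag2* had 0.995 and 0.0798, *Jag1* 0.118 and 0.289, *Dll4* 0.0246 and 0.112, and *Dll3* 0.0210 and a listed 0, so that *Jag1* was the highest in pro-B cells. Both cultures shared stromal cells, and mouse stromal RNA would be counted with that of the B lineage cells. Of 12 stromal markers 7 were measured, of which 3 (*Col1a2*, *Fn1* and *Cxcl12*) were beyond 2-fold and higher in pro-B cells, 1 (*Pdgfrb*) was beyond 2-fold and lower, and 3 were within 2-fold. Of all measured genes, 12.2% were higher and 19.1% lower. Of those markers beyond 2-fold, *Fn1* alone reached 1 FPKM in both libraries. The calls of the others are partly fixed by the filter, so the count describes these genes only. Their FPKM ranged from 0 to 15.9 in pre-pro-B cells, with *Lum* at 0, and from 0.0801 to 5.16 in pro-B cells, and summed to 22.2 and 18.1. The pre-pro-B sum was mostly *Pdgfrb* (15.9, against 0.377 in pro-B cells), and *Col1a2* was at 0.707 and 2.82. Their part in the ligand and receptor levels was not tested.

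Receptor cleavage genes were mostly within 2-fold, with 2 of 8 measured genes lower in pro-B cells by 2-fold or more (25%, against 19.1% of all measured genes). *Furin*, the convertase that cuts the receptor on its way to the surface, had 17.6 FPKM, summed over transcripts, in the pre-pro-B library and 2.59 in the pro-B library (log2 -2.37). *Adam17*, the highest of the group in the pre-pro-B library, had 43.8 (2.94-87.2) against 18.0 FPKM (0.829-35.8), log2 ratio -1.24. *Adam10*, the protease that cuts ligand-bound receptors, had 23.5 and 33.7 (log2 0.50) and was the highest of the group in the pro-B library. Of 6 gamma-secretase genes examined, 5 were measured and all 5 were within 2-fold, from -0.50 for *Ncstn* to 0.71 for *Aph1b*.

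Among the enzymes besides *Lfng* that add sugars to the receptors, 1 of 4 was lower in pro-B cells by 2-fold or more (25%, against 19.1% of all measured genes). This was *Mfng*, Manic fringe, with 8.80 (0.0862-19.3) against 3.68 FPKM (0-9.41), log2 ratio -1.06. *Poglut1*, the most abundant of these 4 in pre-pro-B cells, had 13.4 and 6.64 (log2 -0.91). *Pofut1*, which adds the fucose that fringe enzymes extend and was the most abundant of them in pro-B cells, had 5.44 and 10.2 (log2 0.80).

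Of 8 measured ubiquitin ligases and endocytic regulators, 1 was lower in pro-B cells by 2-fold or more (12.5%, against 19.1% of all measured genes). *Dtx4*, a relative of *Dtx1*, had 6.12 (0.0822-14.9) against 0.432 FPKM (0-1.51). It was measured through the pre-pro-B library alone, so its call is partly fixed by the filter. *Itch*, the most abundant of the group, had 67.5 and 72.7, and *Fbxw7*, which targets the Notch intracellular domain for breakdown, 16.7 and 14.0. The Notch inhibitor *Numb* had little FPKM on its NM_ entries, 0.413 in the pre-pro-B library and a listed 0 in the other. Its entries classed as non-coding (NR_) held 8.19 and 10.1, so the NM_ values alone do not describe this gene. None of the 10 Notch genes had an NR_ entry.

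Of the 6 coactivators, 1 was lower in pro-B cells by 2-fold or more (16.7%, against 19.1% of all measured genes). This was *Maml3*, at 33.6 (1.13-90.5) against 8.04 FPKM (0.661-21.6), log2 ratio -1.93. *Maml3* was thus above *Maml1* in the pre-pro-B library, with overlapping intervals. *Maml2* was level at 4.94 and 4.91, and *Snw1*, a nuclear cofactor with the highest FPKM of the group, had 55.9 and 50.1. Of 9 measured corepressors, 1 was at least 2-fold lower (11.1%, against the same 19.1%). This was *Tle3*, a Groucho-type corepressor that partners Hes proteins, with a summed FPKM of 52.8 and 9.37 (log2 -2.38). *Tle4* leaned the other way without reaching 2-fold (9.10 and 17.9, log2 0.90), and *Ctbp1*, the most abundant, had 90.1 and 75.4.

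Of 8 other Hes and Hey genes, only *Hes6* was measured. *Hes6*, a family member known for opposing Hes1, stood at 49.5 FPKM (2.96-102) in the pre-pro-B library and at 77.2 FPKM (6.04-157) in the pro-B library, log2 ratio 0.63. *Hes5* had 0.332 and 0.477, *Hes2* and *Heyl* were at most 0.109 in pre-pro-B cells and listed at 0 in pro-B cells, and *Hey1* had 0.218 in pro-B cells against a listed 0. *Hes3*, *Hes7* and *Hey2* were listed at 0 in both libraries. *Hes1* and *Hes6* were therefore the Hes transcripts that reached 1 FPKM, and both were higher in pro-B cells by less than 2-fold.

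Of 6 Notch targets known from lymphoid cells, 4 were measured, *Tcf7* and *Gata3* through the pre-pro-B library alone and *Cr2* through the pro-B library alone. In pro-B cells 3 of the 4 were at least 2-fold lower and 1 higher, against 19.1% and 12.2% of all measured genes. For genes measured through 1 library alone such a call is partly fixed by the filter, so the count describes these genes only. *Tcf7*, the T lineage factor Tcf1, stood at 38.9 FPKM (2.06-101) in the pre-pro-B library and at 0.118 FPKM (0-0.586) in the pro-B library, log2 ratio -5.16 with intervals that did not overlap. *Gata3*, a further T lineage factor, had 2.64 (0-6.45) and 0.0392 (0-0.135), and *Myc* had summed values of 19.0 and 5.88 (log2 -1.81 and -1.54). *Cr2*, the complement receptor CD21 of mature B cells, went the other way, with 0.182 (0-0.484) against 15.5 FPKM (3.23-27.6), log2 ratio 3.80 with separate intervals. *Ptcra*, the pre-T cell receptor alpha chain, stayed under 1 (0.154 and 0.296), as did *Il2ra* (0.719 and 0.308).

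Of 8 markers of the T lineage 3 were measured, *Cd3g* and *Cd4* through the pre-pro-B library alone and *Lck* through both. These 3 were lower in pro-B cells by 2-fold or more, against 19.1% of all measured genes. A lower call for a gene measured through the pre-pro-B library alone is partly fixed by the filter, so the count describes these genes only. The other 5 were under 1 FPKM in both libraries, and the 8 summed to 78.0 and 3.15 FPKM. Most of the pre-pro-B sum was *Cd3g* (36.8) and *Lck* (38.0), while the other 6, *Cd3e*, *Cd3d*, *Cd4*, *Cd8a*, *Cd5* and *Bcl11b*, together made 3.16, and *Cd4* alone exceeded 1. *Cd3d*, *Cd4*, *Cd8a* and *Bcl11b* were listed at 0 in pro-B cells. Of 7 myeloid markers 3 were measured, *Mpo* and *Lyz2* through the pre-pro-B library alone and *Itgam* through both. These 3 were lower in pro-B cells by 2-fold or more, with the same limit. The 7 ranged from 0 to 35.7 FPKM in the pre-pro-B library and from 0 to 6.40 in the other. Their sums were 61.0 and 6.52, and *Elane* and *Ctsg* were at 0 in both. The part of such cells in the receptor levels was not tested.

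**Figure D3:**
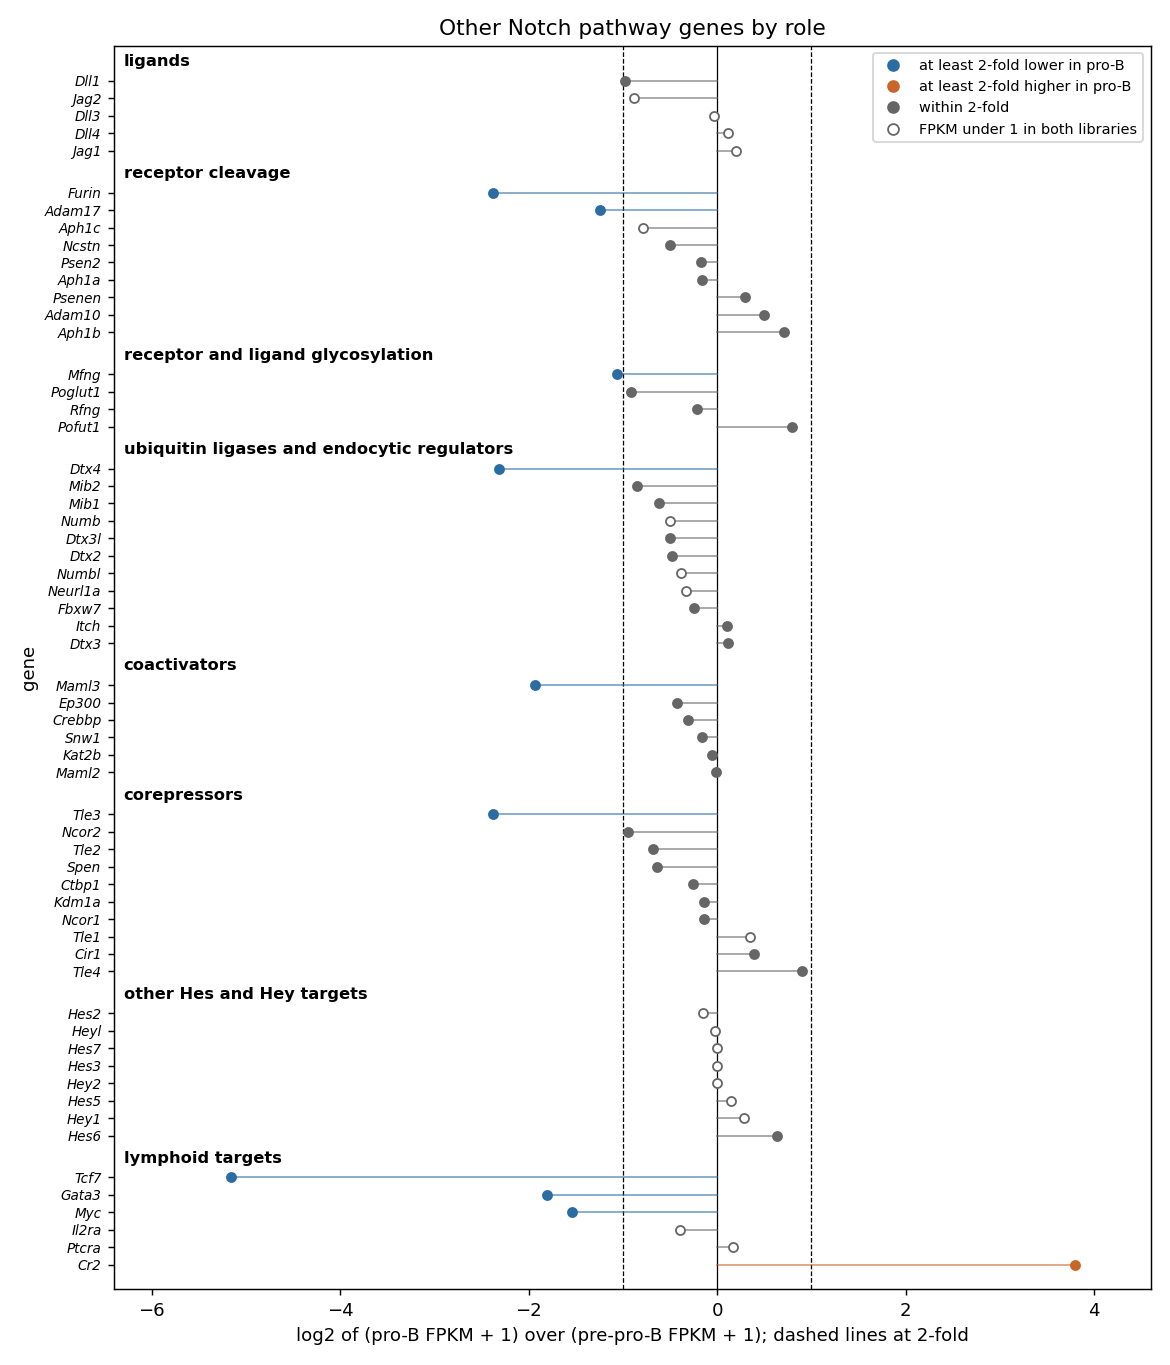
Log2 (pro-B over pre-pro-B FPKM, pseudocount of 1) for the 59 other Notch pathway genes, grouped by role, with filled points for measured genes and open points for genes under an FPKM of 1 in both libraries. The lower genes run from *Mfng* (-1.06) to *Tcf7* (-5.16) and lie in every role except the ligands and the other Hes and Hey genes. *Cr2* (3.80) is the 1 gene beyond 2-fold on the right.

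The way the ratio was computed mattered most for low values. The log2 ratio of *Notch1* ran from -5.85 without a pseudocount to -4.30 with median ratio scaling, and that of *Notch3*, which was under an FPKM of 1 in both libraries, from -2.26 to -0.28. For *Hes1* it ran from 0.74 to 0.88 and for *Rbpj* from -1.54 to -1.13, so that *Hes1* stayed higher and *Rbpj* lower in pro-B cells under every setting tried.

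**Figure D4:**
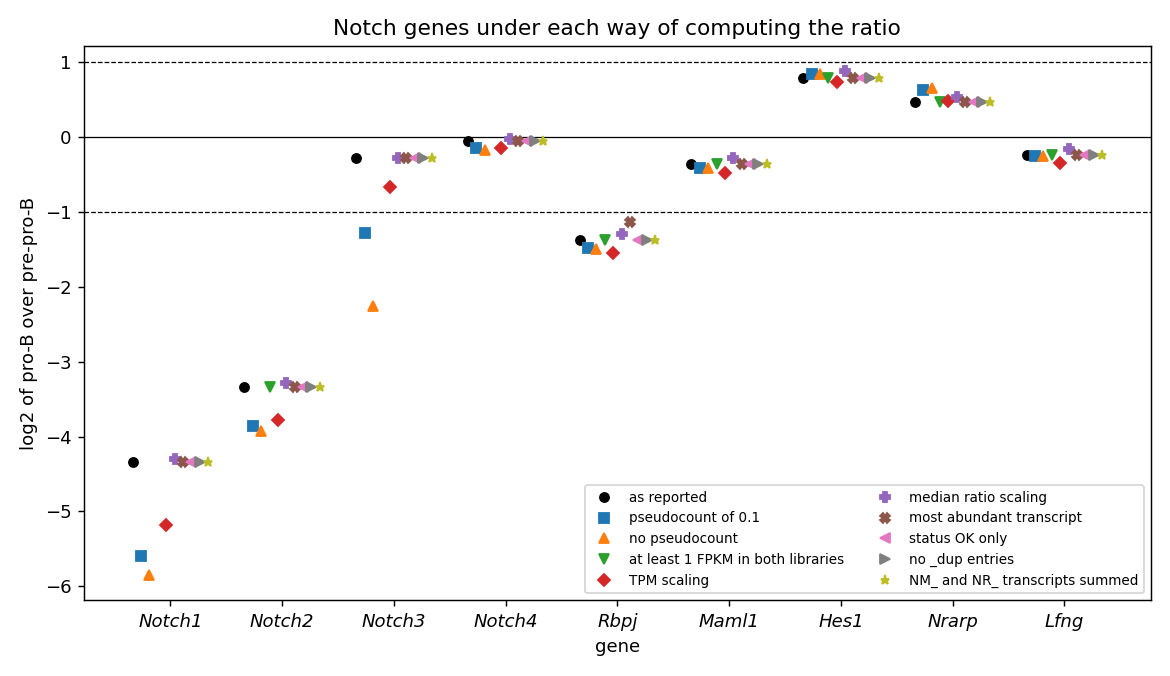
Log2 (pro-B over pre-pro-B) for 9 Notch genes (*Dtx1*, at 0 in pro-B cells, has none) under the reported setting and each alternative, with dashed lines at 2-fold. The points of *Notch1* spread from -5.85 to -4.30 and those of *Hes1* from 0.74 to 0.88, and no gene crosses 0.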

How the data were processed

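RNA-seq was deposited as 1 table of FPKM for 30485 RefSeq transcripts in 1 pre-pro-B and 1 pro-B library. The authors trimmed the reads, aligned them to mm9 with TopHat (1.5 in the submitters' processing notes, while the study's parameter sheet names another release) as strand-specific reads, and estimated the deposited FPKM and their 95% limits with Cuffdiff 2.1.1, with multi-read and fragment bias correction and no scaling between libraries. FPKM hold no counts, so the reads behind a value were approximated as FPKM times transcript length times the number of reads stated in the labels. A second deposited table holds the authors' own fold changes, p-values and q-values and was not used, with its 2 per-sample columns.

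Names came from a RefSeq gene table of GRCm38.p6, which matched 26551 of 26968 NM_ entries. Loci are those of the table (mm9), with starts counted from 1. FPKM were summed per gene, a gene counted as measured when it reached 1 FPKM in either library, and counts of higher or lower genes used 2-fold on log2(FPKM + 1). All 10 Notch genes are given, with every other pathway gene beyond 2-fold and the most abundant of each role. The members, lists and alternatives were chosen with earlier results of these data known. Genes of the mm9 annotation on the opposite strand overlap *Notch1*, *Notch3*, *Notch4* and *Maml1*. Python 3.11.15, numpy 2.4.6, pandas 2.3.3 and matplotlib 3.10.9 were used. The steps for gene sums, the FPKM filter, ratios, calls and interval comparisons were first tested on simulated data. The motif search, the other scalings and the figures were not. The alternatives were another pseudocount or none, other filters, TPM and median ratio scaling, single transcripts, status OK only, no duplicate entries and, chosen after seeing the data, 1.5-fold and 4-fold limits and sums with NR_ entries.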

Additional observations from a re-analysis of the deposited data

How the results depend on the processing

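No replicate check exists with 1 library per cell type. No paired analysis was possible because each group holds 1 library and no test was made. The count of 3 Notch genes lower in pro-B cells by 2-fold or more held under the other scalings and transcript choices, with 4 of 9 measured without a pseudocount (*Notch3* added, 22.1% of all genes lower at that setting), 2 of 6 at an FPKM of at least 1 in both libraries (*Notch1* not included, 11.3% of all genes) and 2 of 7 at 4-fold (7.47% of all genes). At 1.5-fold, *Hes1* gave 1 higher Notch gene. Of 78 log2 ratios of Notch genes recomputed, 0 changed sign and 2, both of *Notch3* (-1.28 with a pseudocount of 0.1 and -2.26 without one), passed 2-fold. Among the other pathway genes, 9 lower and 1 higher of 41 measured became 13 and 1 of 41 with a pseudocount of 0.1 (all genes 22.1% and 14.2%). They became 16 and 3 of 50 without a pseudocount (all genes 22.1% and 17.2%) and 17 lower of 48 with TPM scaling (all genes 23.8%). The counts were 6 lower and 0 higher of 34 at an FPKM of at least 1 in both libraries (all genes 11.3% and 10.4%), 16 and 5 of 41 at 1.5-fold (all genes 29.8% and 20.1%), and 4 lower of 41 at 4-fold (all genes 7.47%). *Mfng* was within 2-fold with median ratio scaling. TPM scaling, which also makes a pseudocount of 1 smaller against the values, moved the median log2 ratio of all measured genes from -0.14 to -0.25. *Notch1* was the transcript with separate intervals in all settings tried.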

Other observations

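Other motifs were searched in the promoter windows of the Notch genes on both strands. The E-box CANNTG, the letters that E proteins such as E2a bind, was in the windows of 4 of the 9 genes (*Notch4*, *Rbpj*, *Nrarp* and *Lfng*) and in 72.3% of all 32851 windows. The windows of *Notch1* and *Notch2* held 0 matches. The letters CCCNNGGG, the core of the motif bound by Ebf1, were in the windows of 5 of the 9 genes (*Notch2*, *Notch3*, *Rbpj*, *Maml1* and *Dtx1*). That is 6 of their 10 windows, with the overlapping windows of *Rbpj* holding the same matches, against 13.7% of all windows. The fixed letters of this motif are all G or C. The windows of the Notch genes were 58.3% to 73% G and C, and all windows were not matched for this, so the difference was not tested. In *Notch2* the match lay 106 bases before the start.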
